A study of Mus musculus with 8 samples.

Results

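Basal expression was described for MC3T3-E1 cells, a mouse osteoblast line established from skull bone, in the control co-culture of a series on Notch signalling between tumour cells and osteoblasts. The profile was taken from 2 of the 8 arrays of the series, those whose titles name the vector DMSO co-culture, and covers 22252 of the 28727 genes on the array, those with Cy3 or Cy5 well above background on both arrays. In the vector DMSO group the osteoblasts were grown with tumour cells carrying the empty vector and received the solvent DMSO. The other 3 groups were osteoblasts with Jagged1-overexpressing tumour cells in DMSO, with vector tumour cells in MRK-003, and with Jagged1-overexpressing tumour cells in MRK-003. MRK-003 blocks gamma-secretase, whose cut sets the Notch intracellular domain free. All 4 groups shared the osteoblast line, its alpha MEM medium with serum, and growth beside tumour cells, and each had 2 biological replicates of this 1 cell line. Every array carried the co-culture in Cy3 and the same commercial Universal Mouse Reference RNA in Cy5. The tumour line, its species and any separation of osteoblasts from tumour cells are not stated in the labels and files used here.

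Osteoblasts lay down a matrix built mostly of type I collagen and mineralise it. Runx2 and its downstream factor Sp7 are needed for osteoblast formation, and tissue-nonspecific alkaline phosphatase (Alpl) and osteocalcin (Bglap) appear as the cells mature. Bones of the face and of part of the skull vault come from cranial neural crest, which uses Alx, Dlx, Msx and Twist factors and largely lacks Hox expression, whereas limb and trunk skeleton carries Hox codes. The reference is a pool of RNA from mouse cell lines of several tissues, among them macrophages, lymphocytes, liver and mammary gland cells, so a ratio gives the level in the co-culture relative to a mixture and not relative to another kind of bone cell.

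Replicate 1 of every group was on slide 1 and replicate 2 of every group on slide 2. The slide 2 array of vector DMSO was dimmer: the median Cy3 signal was 182.8 on replicate 1 and 76.5 on replicate 2, and the share of spots well above background in Cy3 was 88.3% and 71.4%. Saturated spots in Cy3 numbered 54 and 1 on the 2 arrays, against 484 and 133 in the reference RNA in Cy5. Values are log2 ratios of the processed signals, co-culture over reference RNA, where 1 is a doubling in the co-culture. A gene was called when limma gave a Benjamini-Hochberg adjusted p under 0.05 and the mean log2 ratio was at least 1 in size. The dyes were not swapped, so dye bias and the difference between co-culture and reference RNA cannot be told apart, and the test holds the spread between arrays but not the spread of the reference. Each SE rests on 2 arrays and on a spread shared by the 4 groups, so the number of arrays limits the precision. Fewer cells of a type and less RNA per cell cannot be told apart in these bulk samples either.

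Of 22252 genes, 1817 were called higher in the co-culture (8.17%) and 2618 lower (11.8%). The counts of the gene lists below are to be read beside these shares. Both arrays gave the same sign for every one of the 4435 called genes, and 3529 of them were at least 2-fold from 1:1 on both arrays. The call was made on the mean of these same arrays, so the shared sign is no independent check. The log2 ratios of the 2 arrays had a Pearson correlation of 0.910 across genes, which are not independent replicates, and the median difference between the arrays was 0.239. The median ratio over all genes was 0.045, in signals that the scanner software had already dye-normalised.

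**Figure D1:**
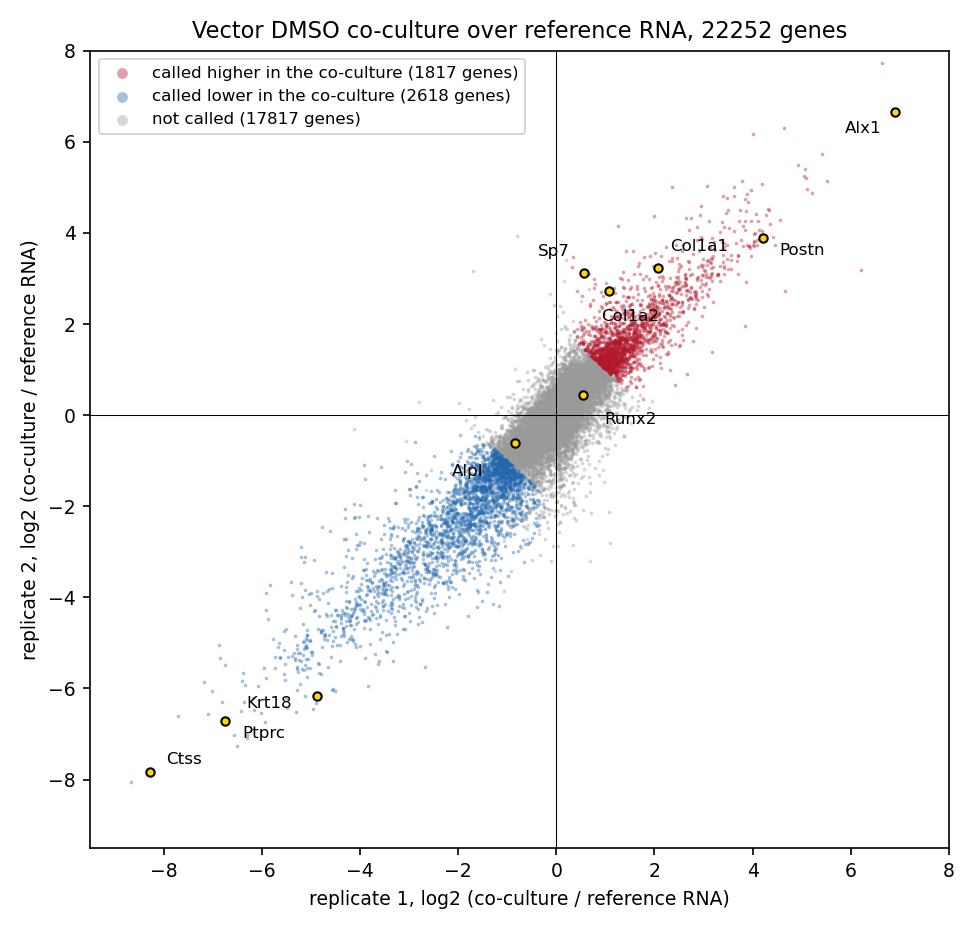
Log2 ratio of co-culture over reference RNA on replicate 1 (x axis) and replicate 2 (y axis) of vector DMSO, 1 point per gene, with red for genes called higher, blue for genes called lower and grey for the others. Alx1 lies at the high end, Ctss and Ptprc at the low end, Runx2 and Alpl within the grey cloud, and Sp7 and Col1a2 off the diagonal.

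The osteoblast markers were all well above background in the co-culture on both arrays, but only the collagen markers were called higher than the reference. Col1a1, the alpha 1 chain of type I collagen, had log2 ratios of 2.06 and 3.24 at its brightest probe (mm7, chr11:95060800-95060859), from Cy3 signals of 288311 and 163604 in the co-culture against 68956 and 17305 in the reference RNA. The mean was 2.65 ± 0.47 (SE, n = 2 arrays, adjusted p = 0.0044), and Cy3 was saturated on replicate 1. Both arrays were thus well above the reference, and the 2 other Col1a1 probes, unsaturated, gave mean ratios of 2.66 and 2.82. Col1a2, the alpha 2 chain, was saturated at its brightest probe (mm7, chr6:4493505-4493564) in Cy3 on both arrays and in Cy5 on 1. That probe gave 1.08 and 2.72 (adjusted p = 0.012), and no fold or limit can be set from it. Its second probe, not well above background in Cy5 on replicate 2, gave 3.40 and 2.36. Without replicate 2 the brightest probes of Col1a1 (2.06, adjusted p = 0.066) and Col1a2 (1.08, adjusted p = 0.15) no longer passed.

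Runx2, the master transcription factor of the osteoblast lineage, had ratios of 0.55 and 0.45 at its brightest probe, which stood for the gene and was not called (mean 0.50 ± 0.17 SE, adjusted p = 0.047). The 4 Runx2 probes did not agree. Probe positions are those of the array design, and their place in exons was not analysed here. On mm7 the gene lies on the minus strand of chromosome 17, and the 3 probes within chr17:42727803-42731773 averaged 0.37, 0.50 and 0.63. The fourth, at chr17:42937487-42937546, is 205.8 kb further towards the 5′ side and gave 1.45 and 2.27 (mean 1.86, adjusted p = 0.00049 among all probes). Alpl, which cleaves pyrophosphate and so frees phosphate for mineral, had ratios of -0.85 and -0.61 (mean -0.73 ± 0.24 SE, adjusted p = 0.049), with both arrays below the reference but short of a 2-fold difference. Runx2 and Alpl were therefore detected in the co-culture without being called higher than the reference.

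Promoters are shown for 5 genes that the results turn on: Col1a2 and Col11a1 for the collagen chains, Mmp13 and Bglap, which are known Runx2 targets in mouse with very different ratios here, and Runx2 itself. Each run holds the 250 bases before the RefSeq transcript start (build GRCm38.p6), 5′ to 3′ on the gene's strand. Capitals mark 2 motifs searched on both strands, which share no overlap in these runs. The Runx core was searched as TGTGGT on the printed strand. A core on the opposite strand appears as ACCACA in the run. The other motif was the CCAAT box, and on the opposite strand this box appears as ATTGG in the run. Col1a2 is at chr6:4505368-4505617 (plus strand), Col11a1 at chr3:114030290-114030539 (plus), Mmp13 at chr9:7272264-7272513 (plus), Bglap at chr3:88384467-88384716 (minus) and Runx2 at chr17:44814628-44814877 (minus).
Col1a2: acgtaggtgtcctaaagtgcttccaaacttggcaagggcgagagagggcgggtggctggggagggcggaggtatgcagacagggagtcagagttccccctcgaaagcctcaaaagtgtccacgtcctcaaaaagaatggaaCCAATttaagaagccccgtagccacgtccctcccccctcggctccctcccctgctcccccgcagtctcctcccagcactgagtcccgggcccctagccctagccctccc
Col11a1: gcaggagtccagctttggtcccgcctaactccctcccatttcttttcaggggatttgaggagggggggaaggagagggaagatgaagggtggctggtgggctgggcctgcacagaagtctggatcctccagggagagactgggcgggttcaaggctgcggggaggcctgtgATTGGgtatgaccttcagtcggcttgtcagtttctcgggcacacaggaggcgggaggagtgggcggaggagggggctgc
Mmp13: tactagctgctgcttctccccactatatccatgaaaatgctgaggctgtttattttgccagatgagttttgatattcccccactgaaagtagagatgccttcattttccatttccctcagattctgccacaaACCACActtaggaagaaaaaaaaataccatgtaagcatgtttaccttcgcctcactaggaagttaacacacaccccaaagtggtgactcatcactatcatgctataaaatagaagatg
Bglap: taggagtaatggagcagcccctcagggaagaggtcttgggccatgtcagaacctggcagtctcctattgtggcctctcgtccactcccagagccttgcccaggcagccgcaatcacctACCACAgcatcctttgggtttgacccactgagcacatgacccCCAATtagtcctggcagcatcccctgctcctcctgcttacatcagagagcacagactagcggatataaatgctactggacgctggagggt
Runx2: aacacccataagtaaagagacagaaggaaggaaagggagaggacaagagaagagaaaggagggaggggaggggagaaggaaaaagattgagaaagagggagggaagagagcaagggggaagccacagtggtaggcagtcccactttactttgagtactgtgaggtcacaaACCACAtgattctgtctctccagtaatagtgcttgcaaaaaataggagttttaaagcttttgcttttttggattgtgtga

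Counted per promoter, the Runx core was found in 14% of all 32851 promoters of this length and the CCAAT box in 33.8%. The Col1a2 CCAAT box starts 109 bases before the transcript start and that of Col11a1, on the other strand, 79 bases before it. The Runx core starts 118 bases before the start in Mmp13, 132 in Bglap and 80 in Runx2. The shares that follow are counted per gene, where a motif in any promoter of the gene counted. They are therefore to be read beside each other and not beside the shares per promoter. Of 19 collagen chains with a promoter in the table, 9 held a CCAAT box (47.4%) and 2 a Runx core, and of 22 bone matrix genes 11 and 8 did. Over the 12719 tested genes with a promoter, the Runx core was found in 14.4% of those called higher, 15% of those called lower and 13.3% of the others. The CCAAT box was found in 40%, 38.5% and 39.5% of the same groups of genes.

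Collagen genes were the group furthest above the reference: 18 of the 23 chains that passed the filter were called higher and 2 lower, with a median log2 ratio of 2.12 beside 0.045 over all genes. Col14a1, the remaining chain of the 24 listed, was too dim to test. Col8a2, a short-chain collagen known from the basement membrane of the cornea, had 5.21 and 4.87 (mean 5.04 ± 0.12 SE, 32.9-fold, adjusted p = 2.2e-06). Col11a1, a minor fibrillar chain that sets fibril width, had 3.85 and 4.26 (mean 4.06, adjusted p = 1.3e-05). Col5a2, which nucleates type I fibrils, had 3.41 and 3.09 (mean 3.25). For these 3 chains the arrays were close together and far above 0. Col2a1, the main collagen of cartilage, had 2.64 on both arrays at its brightest probe, while its other probes averaged 1.21 and 0.11. Col3a1, a fibrillar chain of soft connective tissue, had 1.36 and 2.62, with Cy3 saturated on 1 array, and without replicate 2 it no longer passed (1.36, adjusted p = 0.16). Col7a1, the anchoring fibril collagen of skin (-1.55 and -2.31), and Col18a1 were the 2 chains called lower.

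Of 23 genes for collagen processing and crosslinking, 10 were called higher and 2 lower, with a median of 0.81. Adamts2, which removes the amino-terminal propeptide of fibrillar procollagens, had 3.29 and 3.09 (mean 3.19, adjusted p = 3.5e-06), and its 3 other probes averaged between 0.81 and 2.08. P4ha3, a prolyl 4-hydroxylase subunit, had 2.70 and 3.36. Fkbp10 (2.09 and 2.21) and Serpinh1 (1.27 and 1.95), chaperones of procollagen in the endoplasmic reticulum, were likewise above the reference on both arrays. The crosslinking enzymes moved both ways: Loxl1 (-1.51 and -1.79) and Loxl2 (-2.59 and -3.43) were called lower, whereas Loxl3 and Loxl4 were called higher.

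**Figure D2:**
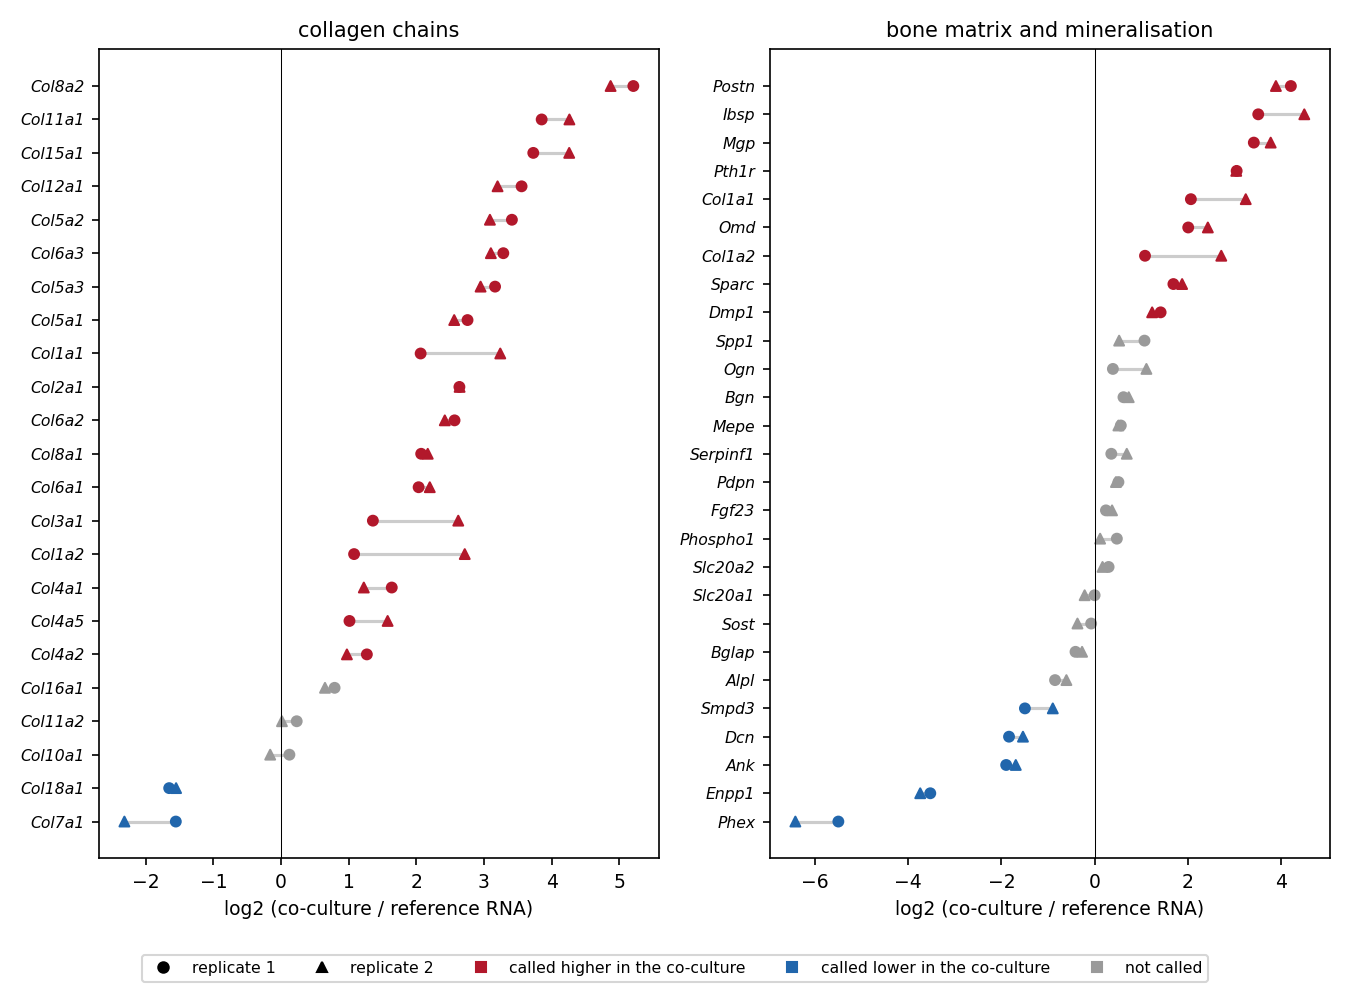
Log2 ratio of co-culture over reference RNA of each collagen chain (left) and each bone matrix or mineralisation gene (right) on replicate 1 (circle) and replicate 2 (triangle) of vector DMSO, with red for genes called higher, blue for lower and grey for the others. Most collagen chains lie right of 0 on both arrays, while the bone matrix genes run from Phex at -5.50 and -6.42 to Postn at 4.21 and 3.89.

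Bone matrix and mineralisation genes were split: of 27 that passed, 9 were called higher and 5 lower, with a median of 0.52. Postn, periostin of the bone surface, had 4.21 and 3.89 (mean 4.05 ± 0.14 SE, 16.6-fold, adjusted p = 4e-06), from Cy3 signals of 151382 and 96704 in the co-culture against 8184 and 6530 in the reference RNA. Ibsp, bone sialoprotein, had 3.51 and 4.50 (mean 4.00, adjusted p = 0.00011), with Cy5 well above background on 1 array. Sparc, Mgp, Omd, Dmp1 and Pth1r, the receptor for parathyroid hormone, were the other members called higher beside the type I collagen chains. Genes of late osteoblasts and of mineral lay on both sides of the reference. Dmp1 had 1.4 and 1.2, and Mepe (0.56 and 0.51) and Phospho1 (0.48 and 0.12) were not called. Smpd3 (-1.50 and -0.90) and Ank (-1.90 and -1.69) were called lower, but the passing probes of Smpd3 averaged from -1.197 to -0.041. Bglap, osteocalcin, had -0.41 and -0.27 and was not called (adjusted p = 0.099), and its near-identical neighbouring copies can share the probe, so the value is uncertain. Spp1, osteopontin, had 1.07 and 0.53 with Cy5 saturated on both arrays and Cy3 on 1, so its ratio is not settled, and Alpl has been given above. Enpp1, which makes the mineral inhibitor pyrophosphate, had -3.53 and -3.74 (mean -3.63 ± 0.11 SE, adjusted p = 2.6e-06). Phex, a peptidase of osteocytes that limits phosphate loss, had -5.50 and -6.42 (mean -5.96, adjusted p = 0.00018), with Cy3 well above background on 1 array. The matrix genes at the top and those at the bottom thus lay on opposite sides of the reference on both arrays.

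Among osteoblast transcription factors 9 of 19 were called higher and 2 lower, with a median of 1.03. Without replicate 2, 6 were called higher and the median was 0.556. Zfp521, a zinc finger regulator of Runx2 activity, had 3.06 and 3.1, and Dlx5, a homeobox factor upstream of Runx2 and Sp7, had 2.55 and 3.28. Sp7, osterix, differed between the arrays more than any other listed factor, with 0.56 and 3.12 (mean 1.84 ± 0.65 SE), and was not called (adjusted p = 0.056). It passed with the replicate number as a block (adjusted p = 0.0015), when only probes bright in both channels were tested (0.049), and without replicate 1 (3.12, adjusted p = 0.014). Atf4, needed for late osteoblast protein synthesis, was close to the 2-fold limit at -1.16 and -0.97, and without replicate 1 it fell short of it. Twist2, a factor that restrains Runx2, had -3.87 and -3.74 (mean -3.81 ± 0.10 SE, adjusted p = 2.3e-06), the lowest of the list.

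Factors that pattern the face and skull were mostly above the reference, with 11 of 20 called higher, 1 lower and a median of 1.07. Msx1, Msx2, Dlx5 and Twist1 also belong to the list of osteoblast transcription factors, so the 2 lists are not separate results. Msx2, Dlx5 and Twist1 were called higher and count in both, and Msx1 was not called. The count called higher was 8 after normexp and loess, 6 under a test against a 2-fold ratio and 13 with the mean over probes. With both channels required above background it was 8 of 17, with a median of 0.779. Probe means ran from -0.09 to 3.34 for Alx4 and from 0.44 to 5.09 for Tfap2b. Alx1, a homeobox factor needed for the skull vault and midface, had Cy3 signals of 6885 and 4790 in the co-culture against 57.5 and 47.3 in the reference RNA. Its log2 ratios were 6.91 and 6.66 (mean 6.78 ± 0.18 SE, adjusted p = 2.2e-06). Cy5 was well above background on 1 array only, so the size of the ratio is uncertain. En1, engrailed 1, which acts in calvarial osteogenesis in mouse, had 3.19 and 3.50, again with Cy5 well above background on 1 array. Tbx15, a T-box factor of skeletal development, was called higher too (1.56 and 1.74), with its probe means between 0.53 and 1.65. Foxd1, known from kidney stroma and forebrain, was the 1 member called lower, at -3.14 and -4.69 (adjusted p = 0.00047).

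Hox genes, which set position along the trunk and limbs, lay mostly at or below the reference, with a median of -0.61. Of 33 that passed, 13 were called lower (39.4%) and 2 higher (6.06%), beside 11.8% and 8.17% of all genes. Hoxc9 had -5.35 and -5.23 (mean -5.29 ± 0.24 SE, 39.2-fold lower than the reference, adjusted p = 1.2e-05). Hoxa11, a limb gene, was not well above background in Cy3 on either array and was at least 20.1-fold lower. Hoxd8 had -3.33 and -5.39, with Cy3 well above background on 1 array. These 3 genes lay far below the reference on both arrays. Hoxb8 (1.51 and 1.57) and Hoxa2 (0.94 and 1.46) were the 2 called higher. Hoxb8 had Cy5 well above background on 1 array, and without a filter on dim probes another probe stood for it at 0.27. Hoxa2 no longer passed without replicate 2 (0.94), and neither was called after normexp and loess, at 0.46 for Hoxb8 and 0.53 for Hoxa2.

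**Figure D3:**
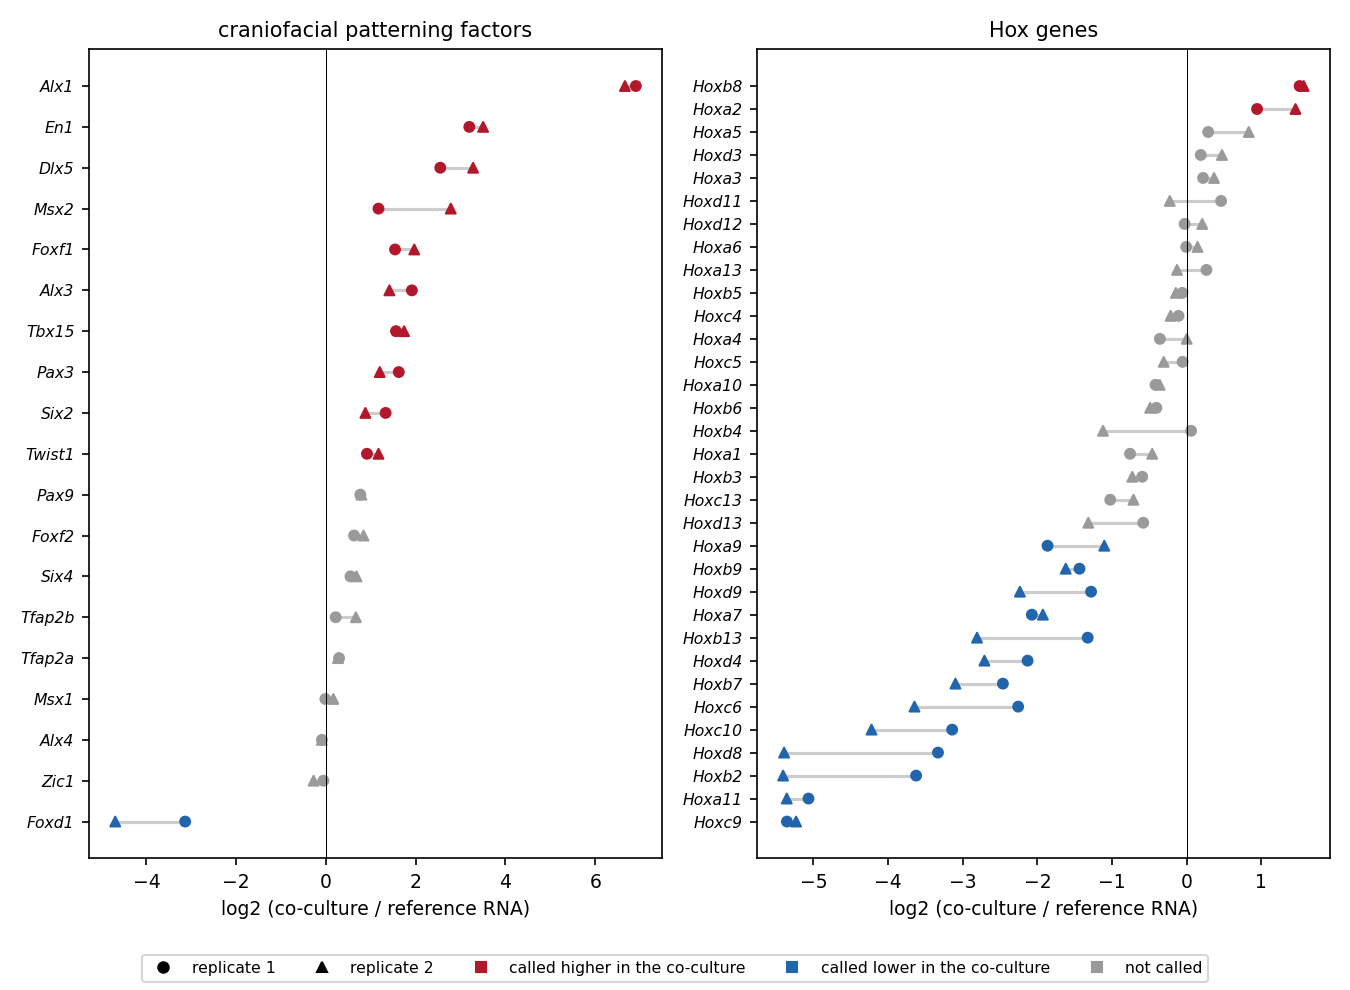
Log2 ratio of co-culture over reference RNA of craniofacial patterning factors (left, those reported here) and Hox genes (right) on replicate 1 (circle) and replicate 2 (triangle) of vector DMSO, coloured by call as red (higher), blue (lower) and grey (not called). Alx1 at 6.91 and 6.66 stands apart at the top of the left panel, and the Hox genes run down to Hoxc9 at -5.35 and -5.23 on the right.

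Mesenchymal surface and cytoskeletal genes passed in both directions, 8 of 21 higher (38.1%) and 2 lower (9.52%), beside 8.17% and 11.8% of all genes. Pdgfrb, a receptor of platelet-derived growth factor on mesenchymal and perivascular cells, had 3.29 and 3.09 (mean 3.19, adjusted p = 3.5e-06). Cdh11, osteoblast cadherin, had 2.74 and 2.82 at its brightest probe, and its other probes averaged 2.46 and 0.28. Fbn1, the microfibril protein fibrillin 1, had 2.56 and 2.49. Thy1, a surface protein of stromal cells and T cells, had -4.18 and -4.40 (mean -4.29 ± 0.10 SE, adjusted p = 2.1e-06), and Eng, a TGF-beta co-receptor, had -1.55 and -1.18. Contractile genes of smooth muscle gave 5 of 13 higher (38.5%) and 3 lower (23.1%), and 3 higher without replicate 2. They ran from Cald1, caldesmon, at 2.52 and 1.55 to Cnn1, calponin 1, at -2.04 and -3.47, and Tagln, an actin-bundling protein, was lower at -1.25 and -1.46.

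For the Notch pathway, which the series addressed, the control co-culture had 4 of 19 receptors, ligands and targets called higher and 5 lower. These shares were 21.1% and 26.3%, beside 8.17% and 11.8% of all genes. The list's median was -0.03 and ran from -0.119 without replicate 1 to 0.236 with both channels required above background, so it has no settled sign. Jag1, the ligand that the tumour cells overexpress in other groups, had 2.25 and 2.09 at mm7 chr2:136822550-136822609 (mean 2.17 ± 0.10 SE, 4.51-fold, adjusted p = 1.1e-05). Among receptors, Notch1 had 1.77 and 1.32 (adjusted p = 0.00054), and Notch3, known from vascular smooth muscle, had -2.0 and -2.17 (adjusted p = 1.7e-05). The target Hes1, a transcriptional repressor, had 1.55 and 2.19, while Hey1, another target, had -0.59 and -0.54 and was not called. Jag2, a second ligand, was not well above background in Cy3 on either array and was at least 9.07-fold lower. Jag1, Notch1 and Hes1 were thus above the reference on both arrays, and Notch3 and Jag2 below it on both. Of 16 genes for Notch processing and the nuclear complex, 3 were higher (18.8%) and 1 lower (6.25%), beside 8.17% and 11.8% of all genes. Without replicate 2, and likewise after normexp and loess, 1 was called higher, and without replicate 1, 2 were called lower. Maml1, a coactivator of the Notch nuclear complex, had 1.36 and 1.42 and Rbpj, its DNA-binding partner, had -1.63 and -1.11.

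In the BMP and TGF-beta pathway 8 of 30 genes were called higher (26.7%) and 4 lower (13.3%), beside 8.17% and 11.8% of all genes. Tgfb3, a TGF-beta ligand, had 2.42 and 2.93 (mean 2.68, adjusted p = 3.9e-05), and Fst, follistatin, an activin antagonist, had 2.85 and 2.45. Id1 (-3.38 and -2.86) and Id2 (-4.28 and -3.78), helix-loop-helix inhibitors induced by BMP, were called lower (adjusted p = 6.1e-05 and 0.00056). Grem1, a BMP antagonist, had -2.70 and -3.57. Ligand and antagonist genes were therefore found on both sides of the reference.

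Wnt genes gave 8 of 29 higher (27.6%) and 6 lower (20.7%), beside 8.17% and 11.8% of all genes. The 4 highest were secreted antagonists. Dkk3 had 4.17 and 3.94 (mean 4.06 ± 0.13 SE, adjusted p = 3.1e-06) and Sfrp2, a frizzled-related decoy, had 2.98 and 2.89. Dkk1, which blocks the co-receptors Lrp5 and Lrp6, had 3.48 and 3.43 at its brightest probe and a mean of 0.12 at the other. Wif1, which binds Wnt ligands, had 2.95 and 4.59, with Cy5 well above background on 1 array. Tcf7, a nuclear effector of the pathway, had -3.58 and -3.60 (mean -3.59, adjusted p = 2.2e-06), the lowest of the list.

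Among IGF and FGF genes 7 of 19 were higher (36.8%) and 5 lower (26.3%). Their median was 0.004 and ran from -0.088 after normexp and loess to 0.550 with the mean over probes, so it has no settled sign. Fgf7, a growth factor made by mesenchyme, had 3.04 and 3.17, Fgfr2, an FGF receptor linked to skull sutures, had 2.50 and 2.18 with its probe means down to 0.63, and Igf1 had 1.65 and 1.98. Igf2, the fetal insulin-like growth factor, had -2.86 and -2.69 (mean -2.78, adjusted p = 3.4e-06), and Igfbp2, a binding protein, had -3.02 and -2.45. Fgf10, with Cy3 well above background on 1 array, was lowest at -2.85 and -3.94. Igf1 and Igf2 thus lay on opposite sides of the reference.

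Genes by which osteoblasts regulate osteoclasts gave 3 of 16 higher (18.8%) and 5 lower (31.2%), with a median of -0.73. Tnfsf11, the osteoclast-inducing ligand RANKL, was too dim to test. Its decoy receptor Tnfrsf11b, osteoprotegerin, had 0.79 and 1.92 (mean 1.35, adjusted p = 0.0058), and without replicate 2 it was not called (0.79). Csf1, the macrophage growth factor that osteoclast precursors need, had 1.85 and 1.66 (adjusted p = 4.2e-05), and Il6, a cytokine that promotes resorption, had 2.81 and 2.32 (mean 2.57 ± 0.21 SE, adjusted p = 0.00015). Cxcl12, a chemokine of marrow stroma, had -2.12 and -2.23, and Efnb2, an ephrin, had -1.87 and -2.69. Wnt5a was not well above background in Cy3 on either array and was at least 2.15-fold lower. Csf1 and Il6 were above the reference on both arrays, at about the same distance on each.

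Matrix proteases and their inhibitors spanned a wide range, 9 of 25 higher and 5 lower. Serpine2, protease nexin 1, had 4.57 and 4.29 (mean 4.43 ± 0.18 SE, 21.5-fold, adjusted p = 7.5e-06). Mmp13, the collagenase of bone and cartilage, had 4.42 and 3.91 (mean 4.16 ± 0.14 SE, 17.9-fold, adjusted p = 4.1e-06), from Cy3 signals of 25760 and 8986 in the co-culture against 1205 and 598.2 in the reference RNA. Ctsk, cathepsin K, best known as the collagen-degrading protease of osteoclasts, had 3.41 and 3.27, and Mmp2, gelatinase A, had 2.11 and 1.83. Mmp3, stromelysin 1, had -7.72 and -6.61 (mean -7.17 ± 0.34 SE, adjusted p = 1.5e-05), with Cy3 well above background on 1 array, and Mmp9, gelatinase B, had -2.32 and -3.09. Mmp13 and Mmp3 were the extremes among the matrix metalloproteinases.

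**Figure D4:**
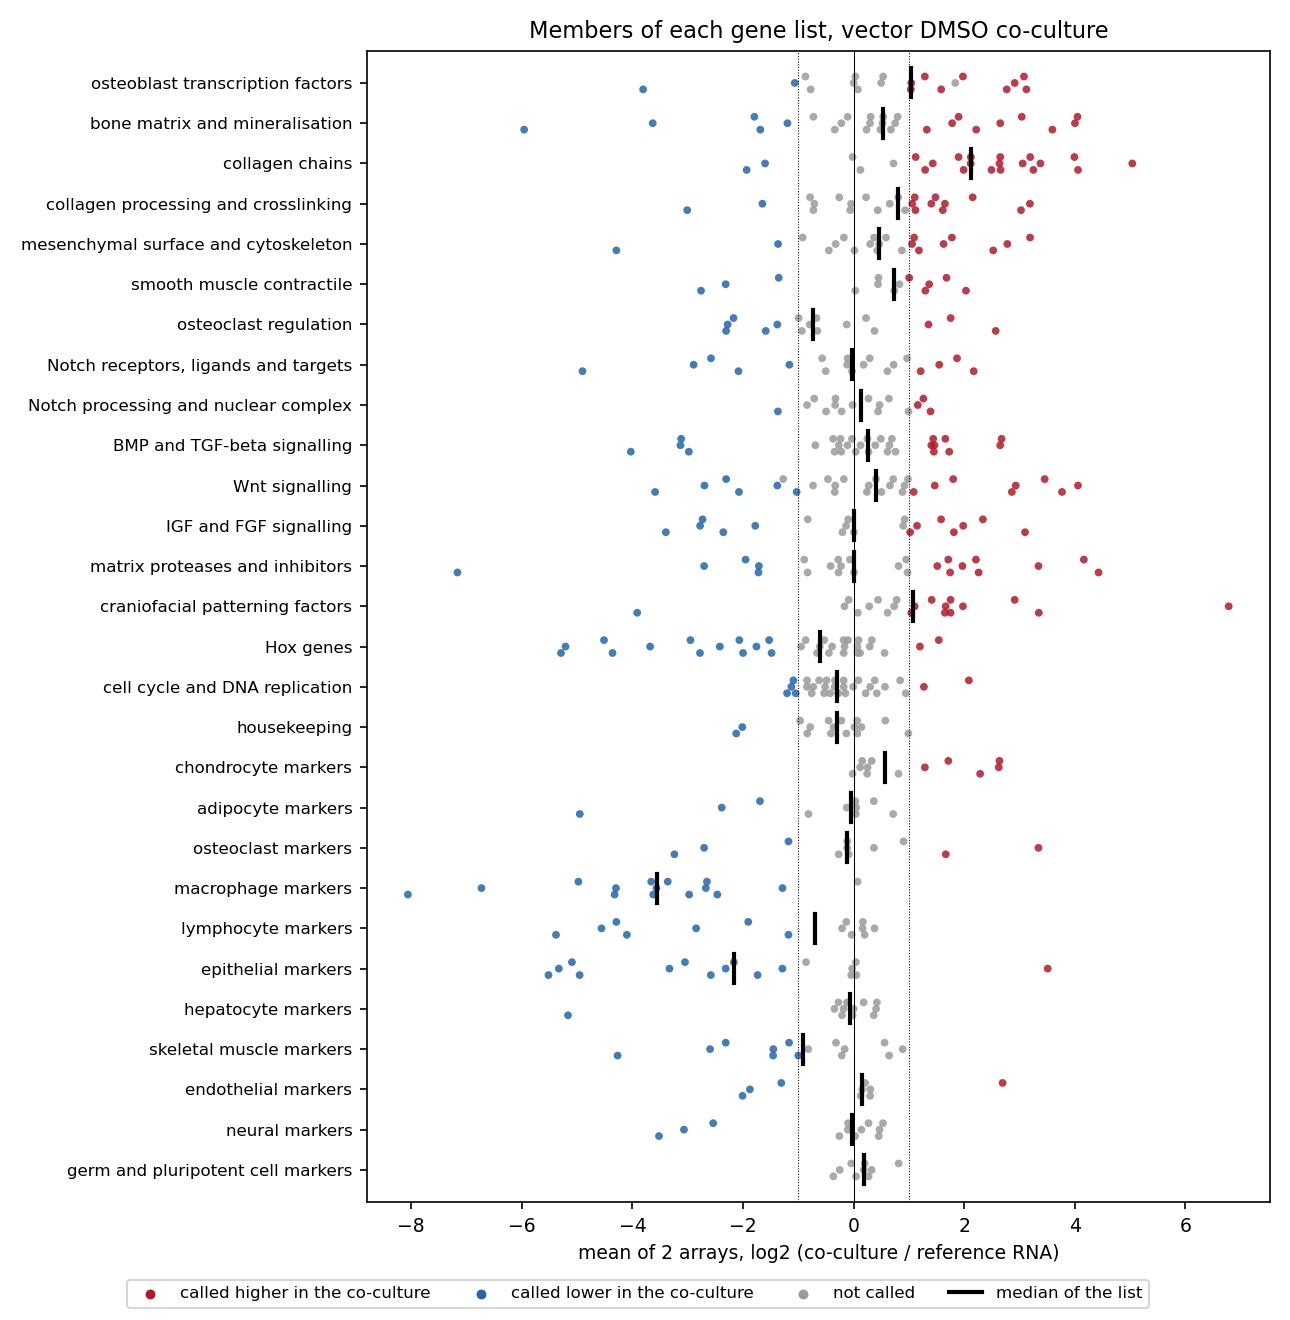
Mean log2 ratio of co-culture over reference RNA (x axis) of every tested member of each gene list, 1 point per gene, coloured by call as red (higher), blue (lower) and grey (not called), with the list median as a black bar and dotted lines at 2-fold. Collagen chains have the highest median (2.12), macrophage markers (-3.57) and epithelial markers (-2.17) the lowest.

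Markers of other cell types were measured in the same way. Macrophage markers were lower for 14 of 15 genes, with a median of -3.57. Ctss, cathepsin S, had -8.29 and -7.83 (mean -8.06 ± 0.36 SE, 267-fold lower, adjusted p = 1.2e-05), from Cy3 signals of 200.7 and 179.5 in the co-culture against 62689 and 40946 in the reference RNA. Ptprc, the common leukocyte antigen CD45, had -6.75 and -6.71 (mean -6.73 ± 0.15 SE, adjusted p = 1.9e-06), and its 2 other passing probes averaged -4.32 and -2.67. Csf1r, the receptor for Csf1, had -2.06 and -2.87 at its brightest probe, and its other probes averaged -1.19 and -0.29. Lyz2, lysozyme, had -1.37 and -1.21, with -0.004 at its other probe, and Itgam, at -0.05 and 0.19, was not called. The summed Cy3 signal of the list was 26572 and 13013 in the co-culture, against 236751 and 136112 in the reference RNA, and no member had Cy3 below background on both arrays.

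Epithelial markers were lower for 11 of 17 genes (64.7%) and higher for 1 (5.88%), with a median of -2.17. Krt18, a keratin of simple epithelia, had -4.88 and -6.16, with Cy5 saturated on 1 array. Epcam, the epithelial adhesion molecule, had -5.10 and -5.09 (mean -5.09 ± 0.15 SE, adjusted p = 2.7e-06), from 210.7 and 100.1 in the co-culture against 7207 and 3418 in the reference RNA. Cdh1, E-cadherin, was not well above background in Cy3 on either array and was at least 1.94-fold lower. The list's summed Cy3 signal was 25265 and 12715 in the co-culture, against 326084 and 272443 in the reference RNA. Whether tumour cells contributed RNA to these libraries was not tested. Trp63, the p53 family factor of stratified epithelia, was the exception at 3.22 and 3.80 (mean 3.51 ± 0.26 SE, 11.4-fold, adjusted p = 9.4e-05) at mm7 chr16:25553466-25553525, and its second passing probe averaged 0.68.

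Lymphocyte markers were lower for 7 of 14 genes, from Cd79b, a B cell receptor subunit, at -5.19 and -5.58 and Lck, the T cell kinase, at -3.95 and -4.25 to Cd79a, at 0.15 and 0.60 and not called. Skeletal muscle markers were lower for 7 of 14, led by Myl1, a fast myosin light chain, at -4.67 and -3.86. Myod1, the muscle master factor, was not called (-0.10 and -0.33), nor was Actc1, cardiac actin (0.81 and 0.96). Among 12 hepatocyte markers only Afp, the fetal liver protein, was called, at -5.29 and -5.04 (8.33% lower, near the 11.8% of all genes). Alb, albumin, had 0.14 and -0.17. Adipocyte markers were lower for 3 of 10 (30%): Lpl (-4.59 and -5.32), Fabp4 (-1.96 and -2.82) and Pparg, the master factor of fat cells (-1.32 and -2.07). Neural markers were lower for 3 of 12 (25%), among them Mbp (-3.26 and -3.77, with a second probe averaging -0.09) and Nes (-2.56 and -3.58). Of 9 germ and pluripotent cell markers that passed, none was called by limma under the adjusted threshold, with Nanog at 0.35 and 1.28 as the highest, called without replicate 1 alone (1.28, adjusted p = 0.024). None of the macrophage, lymphocyte, skeletal muscle, adipocyte, neural or hepatocyte markers was called higher. With 8.17% of all genes called higher, few such calls would fall in lists this short. Their absence therefore says little about each list.

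Cartilage markers had 5 of 12 higher and none lower (median 0.57). Sox9, the master factor of chondrocytes, had 1.52 and 1.05, Comp, a cartilage matrix protein, had 1.65 and 1.77, and Matn3, matrilin 3, had 1.79 and 3.46 with Cy5 well above background on 1 array. Acan, aggrecan, had 0.28 and -0.05, and Col10a1, the collagen of hypertrophic chondrocytes, had 0.12 and -0.16, and neither was called. Endothelial markers had 1 higher (11.1%) and 3 lower (33.3%) of 9, beside 8.17% and 11.8% of all genes. Flt1, a VEGF receptor, was higher at 2.84 and 2.55, with its other passing probes between 0.06 and 2.57. Pecam1 (-1.43 and -2.32) and Egfl7 (-1.73 and -2.29) were among those lower. Osteoclast markers had 2 higher, Ctsk as above and Nfatc1, the master factor of osteoclasts (1.94 and 1.39), and 3 lower, among them Atp6v0d2, a proton pump subunit at least 3.65-fold lower with Cy3 not well above background on either array.

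Of 30 proliferation genes, 2 were higher (6.67%) and 4 lower (13.3%), shares near the 8.17% and 11.8% of all genes, with a median of -0.31. Ccne2, cyclin E2, had 1.64 and 2.53 and Ccnd2, cyclin D2, had 1.5 and 1.04, while Mki67, the proliferation antigen, had -1.13 and -1.12 and Rrm2, a ribonucleotide reductase subunit, -1.18 and -1.23. Of 16 commonly used housekeeping genes none was higher and 2 were lower (12.5%, beside 11.8% of all genes). Hprt, a purine salvage enzyme, had -2.17 and -1.86, and Pgk1, a glycolytic enzyme with Cy5 saturated on both arrays, was at least 4.36-fold lower. Tbp, the TATA-binding protein, had 0.87 and 1.11 and missed the fold limit by a narrow margin. Without replicate 1 it was called (1.11, adjusted p = 0.0065).

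Among genes measured unsaturated and above background in both channels on both arrays, the highest called ratio was that of Lama4. Lama4, the laminin alpha 4 chain, had 5.52 and 5.13 (mean 5.33 ± 0.17 SE, 40.1-fold, adjusted p = 3.1e-06). Gdf6, a BMP family ligand of joints and skull sutures, had 5.08 and 5.40. Itga11, an integrin subunit that binds fibrillar collagen, had 5.09 and 5.20 (35.4-fold, adjusted p = 3.3e-06). The arrays lay close together for each of these 3. Mest, an imprinted gene of mesoderm, had 5.12 and 4.97 (adjusted p = 1.4e-06), and Enpep, a peptidase that cleaves angiotensin, had 4.20 and 5.08. Pdk4, a kinase that restrains pyruvate oxidation, had 4.33 and 4.50. Cables1, a cyclin-dependent kinase partner, had 4.28 and 4.40, and Nxf3, of the nuclear RNA export factor family, 3.85 and 4.75. Col8a2 and Serpine2 complete the top of the order.

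At the other end, Ifi202b, an interferon-inducible DNA-binding protein with near-identical family members, had -8.67 and -8.06 (mean -8.37 ± 0.23 SE, 329.7-fold lower, adjusted p = 2.3e-06), and Ctss followed. Blnk, a B cell adaptor, had -6.44 and -6.49, and Ptprc has been given above. Each of these genes was far below the reference on both arrays. Perp, a desmosome-associated target of p53 family factors, had -6.79 and -6.67, Msln, mesothelin, had -6.81 and -6.30, and Efemp1, a fibulin, had -6.30 and -7.09. Xlr4b, an X-linked gene with near-identical copies, had -7.11 and -6.57, and Rpl39l, a ribosomal protein paralogue of testis, had -6.57 and -7.03 with -3.03 at its other probe.

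For genes with 1 channel not well above background on either array, only a bound could be given, computed against the lowest well-above-background signal of that channel on each array or the probe's own signal where higher, and open to dye bias. Such genes passed the filter through their brighter channel alone. Their adjusted p used the dim channel's own signal, so it does not test the bound and is not given. The largest bounds upwards were Rxfp3, a relaxin family receptor, at least 7.17-fold higher, and Cdh17, a cadherin of gut epithelium, at least 7.06-fold. Lama1, the laminin alpha 1 chain, was at least 4.32-fold higher, D130040H23Rik at least 3.87-fold, Tmtc1 at least 3.21-fold and Tll1, a tolloid protease that processes procollagen, at least 2.90-fold. None of these 6 was called after normexp and loess, and Tmtc1 was not called with either vector DMSO array left out (2.02 without replicate 1, 1.60 without replicate 2). Downwards the bounds were larger. St8sia4, a polysialyltransferase, was at least 63.2-fold lower, and Cst7, a cystatin of immune cells, at least 33.2-fold. Bnc1, basonuclin of keratinocytes and germ cells, was at least 30.1-fold lower, Grtp1 at least 24.1-fold and Ssxb2, one of several near-identical X-linked genes, at least 21.0-fold, the last not called after normexp and loess. Clec5a, a myeloid lectin receptor, was at least 41.9-fold lower by 1 probe, while another, above background in Cy3 on 1 array, averaged -1.06.

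The vector DMSO co-culture was then set against the other 3 co-cultures, to see where the control condition itself differs. limma called no gene (0 of 22252, 0%) at an adjusted p under 0.05, and 618 genes had an unadjusted p under 0.05, which is 2.78% of those tested. This fit held no term for the replicate number, which pairs the arrays by slide. With the replicate number as a block limma called 0 genes too. The unadjusted p and the order of genes given here and below come from the fit without the block. Each of the 10 genes named next had an adjusted p of 0.989. Among genes named from a RefSeq accession or symbol, Lama1 had the smallest p of those higher in vector DMSO. It had 2.85 and 2.71 in vector DMSO against a median of 0.08 over the other 6 arrays. Those 6 arrays ran from -0.575 to 4.522 for Lama1, so vector DMSO lay within their range. Ptprv, an osteoblast tyrosine phosphatase, followed (-0.94 and -1.10 against -1.80, difference from the mean of the 3 group means 0.92). Next came the immediate early genes Ier2 (difference 0.82) and Dusp1 (0.89), and Lrrc15, a surface protein of fibroblasts in tissue remodelling (0.64). Lrrc15 had 1.91 and 2.16 in vector DMSO, close to the median of 1.92 over the other 6 arrays, which ran from 0.159 to 2.014. None of these genes passed the adjustment. Lower in vector DMSO than the mean of the 3 group means were Cbfa2t3, a corepressor (-2.55 and -2.48 against a median of -2.04, difference -1.09), and Mcam, a cell adhesion molecule (difference -0.92). Mcam had -2.04 and -2.39 in vector DMSO, while the other 6 arrays ran from -2.729 to 1.303 with a median of -2.435. Both vector DMSO arrays lay above that median, so Mcam was not below most of the other arrays. Also lower than that mean were Fgr, a myeloid kinase (-0.53), Tlx1, a homeobox factor, and Dtx1, a Notch pathway regulator. No difference is given for Lama1, whose Cy5 was not well above background on either vector DMSO array, for Dtx1, whose Cy3 was not, or for Tlx1, whose Cy3 was on 1 array only.

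Of the 4435 genes called in vector DMSO, 4372 (98.6%) had the same sign on all 6 other arrays, and 2533 (57.1%) were at least 2-fold in that direction on all of them. Those arrays share the reference, the dyes and the slides, so the shared sign is no independent check. Alx1 ranged from 6.34 to 7.49 on the other arrays, against 6.91 and 6.66 in vector DMSO, and Postn from 3.29 to 3.89, against 4.21 and 3.89. Col1a1 ranged from 1.76 to 3.50, within which both vector DMSO arrays lay. Alpl varied more, from -2.38 to 0.12 over the other arrays, against -0.85 and -0.61. Hey1 had the widest range among the Notch targets named, from -3.30 to 3.38, against -0.59 and -0.54 in vector DMSO, and Hes1 ranged from 0.11 to 2.66. Of the Notch receptors, ligands and targets 5 of 19 (26.3%) had an unadjusted p under 0.05 in this comparison, beside 2.78% of all genes. Of the collagen chains 1 of 23 (4.35%) did, near that share.

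**Figure D5:**
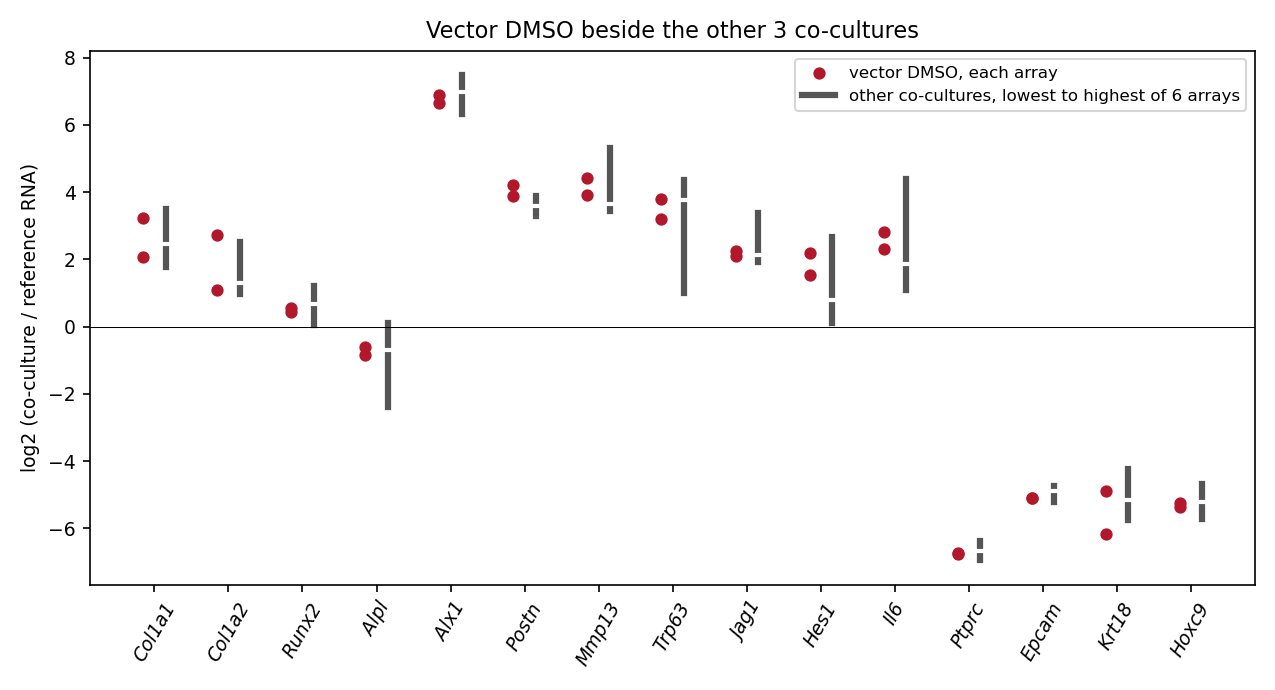
Log2 ratio of co-culture over reference RNA of selected genes on each vector DMSO array (red points, left of each pair) and on the 6 arrays of the other co-cultures (grey bar from the lowest to the highest, white mark at the median). Alx1, Postn, Ptprc, Epcam and Hoxc9 kept to a narrow range, while Trp63, Hes1, Il6 and Alpl each varied over more than 2 log2 units among the other co-cultures.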

How the data were processed

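RNA of 8 co-cultures (Cy3) and of the reference (Cy5) was hybridised to 2-colour Agilent arrays. Per the file headers, the deposited intensity values were background-subtracted and dye-normalised by Feature Extraction, and the probe positions are on mm7. The authors' deposited series table holds log2 ratios and served as an alternative, as did the deposited mean and background intensity columns. Spots with 0 or 1 flags for saturation, background and outliers were handled as deposited.

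From these, log2 of Cy3 over Cy5 processed signal was computed. Control spots and outlier spots were left out, spots of a probe were averaged, and probes with Cy3 or Cy5 well above background on both vector DMSO arrays were kept (31395 of 41174). The passing probe with the highest mean of log2 Cy3 and log2 Cy5 stood for a gene. limma 3.58.1 in R 4.3.3 fitted 4 group means over 8 arrays and tested the vector DMSO mean against 0, and against the mean of the other 3 group means, with Benjamini-Hochberg adjustment over 22252 genes. The first comparison also needed a log2 ratio of at least 1 in size. The fit was tested on simulated data. Figures used matplotlib 3.10.9.

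Gene names came from RefSeq accessions for 22901 probes, from symbols for 6649 and from the array's own names for 11529. Over 6 pairs, arrays of the same replicate number, which share a slide, deviated from their group means together (correlations from 0.32 to 0.746), so the number pairs the samples. The series design calls the replicates biological.

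The genes named were the 10 highest and 10 lowest called ratios measured in both channels, the 6 highest and 6 lowest bounds, the 4 markers, up to 6 members of each list, and the 5 smallest p in each direction against the other co-cultures. Some genes that this rule names are not reported here. Members and lists were chosen with earlier results of these data known. Alternatives were another background correction, centring, the series table, other filters, the replicate block, the mean over probes, fewer arrays, and a test against a 2-fold ratio.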

Additional observations from a re-analysis of the deposited data

How the results depend on the processing

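Against the 1817 genes called higher and 2618 lower, normexp with loess called 1087 and 1709, and limma's treat test against a log2 ratio of 1 called 692 and 1354. These settings kept 62.5% and 46.1% of the calls. Counts with 1 array left out ran from 1509 to 2131 genes higher and from 2217 to 2801 lower, the extremes coming without vector DMSO replicate 2 and without replicate 1. With the replicate block 1834 genes were higher and 2716 lower, all main calls were kept (100%), and among the genes named the block changed the call of Sp7 alone. The share of calls that were higher was 41% in the main setting, 33.8% under treat and 46% with both channels required above background. Against the other co-cultures limma called 0 genes in every setting run, with 164 to 2398 genes at an unadjusted p under 0.05. Values near 0 that were not called changed sign: Itgam was -0.013 after normexp and loess, Col10a1 0.015 and Alb 0.015 in the series table, and Acan -0.049 without vector DMSO replicate 1. With 1 array left out, Acan ran from -0.049 to 0.285, Col10a1 from -0.160 to 0.124, Itgam from -0.050 to 0.194, Alb from -0.174 to 0.138 and Utf1 from -0.767 to 0.034. Among the genes recomputed singly, 21 lost their call after normexp and loess and 28 under treat. The cause was not tested, nor was any link to the dimmer signal of vector DMSO replicate 2.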
